A study of Mus musculus with 8 samples.

Results

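The smooth muscle contractile genes are a set of 10 genes for the actin, myosin and filament-binding proteins that let smooth muscle shorten, namely Actg2, Acta2, Myh11, Des, Tagln, Cnn1, Mylk, Myl9, Tpm2 and Smtn. They were chosen by name, as a gauge of gut wall in each sample, by taking every array probe that carries one of these gene symbols. Probes were found for 9 of the 10 genes, out of 9110 genes with a tested probe in the series, and Myl9 is not analysed here. The 9 genes had 17 probes, of which 15 were detected on enough arrays to be tested. Expression was measured with 1-colour Illumina bead arrays, 1 array for each of 8 colon tumor RNA samples. In 4 samples (VP16LXRa, replicates 5 to 8) the mice carried the Apc min allele in 1 copy, which truncates a brake on Wnt signalling and gives rise to intestinal tumors, and a transgene for VP16LXRa. That protein joins VP16, an activation domain from a herpesvirus, to the liver X receptor alpha, a sterol-sensing nuclear receptor, and so keeps the receptor active without ligand. In the other 4 samples (VP16, replicates 1 to 4) the mice carried the same Apc min allele and a transgene for VP16 alone. All mice were 8 months old and of a mixed C57BL/6J and FVBN strain, and all samples were labelled as tumors of the colon. The labels name neither the promoter of the transgenes nor how much gut wall was taken with a tumor, and they do not say that each tumor came from a separate mouse. The comparison addressed whether the contractile genes differed between VP16LXRa and VP16 tumors, and how much they varied among tumors of either genotype.

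Smooth muscle contracts when filaments of myosin pull on filaments of actin. Calcium bound to calmodulin activates the myosin light chain kinase, which phosphorylates the myosin light chain and so starts the pull. In the colon, smooth muscle forms the outer muscle coat, the thin muscle layer under the mucosa and the walls of vessels, and some of its proteins, alpha smooth muscle actin above all, are also made by myofibroblasts. Most genes of the set are known targets of serum response factor (SRF), which works with its coactivator myocardin and binds the CArG box, a run of CC, 6 bases of A or T, and GG.

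The promoter sequences of Acta2 and Des are shown because the members varied together over the arrays and these genes stand for a window with CArG-like letters and for one without. Each is the 250 bases before the annotated start, 5′ to 3′ on the gene's strand, from RefSeq on GRCm38.p6. The Acta2 window lies at chr19:34255374-34255623 on the minus strand, and the Des window at chr1:75360042-75360291 on the plus strand. Capitals mark a CArG box with at most 1 G or C among its 6 central bases, searched on both strands.
Acta2: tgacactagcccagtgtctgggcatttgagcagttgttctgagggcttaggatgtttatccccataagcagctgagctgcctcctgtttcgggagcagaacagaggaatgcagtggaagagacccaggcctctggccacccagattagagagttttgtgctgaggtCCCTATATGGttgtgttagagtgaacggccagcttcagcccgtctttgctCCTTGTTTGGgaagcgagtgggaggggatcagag
Des: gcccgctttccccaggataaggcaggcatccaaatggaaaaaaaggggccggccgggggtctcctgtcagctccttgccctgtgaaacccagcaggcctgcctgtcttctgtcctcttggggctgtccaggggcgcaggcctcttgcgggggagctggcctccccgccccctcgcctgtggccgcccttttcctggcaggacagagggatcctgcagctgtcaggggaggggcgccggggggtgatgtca
The Acta2 window held 2 such boxes, whose first bases are at -84 and -34 relative to the start, and none with A or T at all 6 central bases. The Des window held none of either kind. Of the 7 members with a window in the table, 6 belong to the analysed genes, and 5 of these 6 (Des, Cnn1, Mylk, Tpm2 and Smtn) held no box even with 1 departure. Myl9, whose expression is not analysed here, had 1 strict box in its window. Among all 32851 windows of this length 1.47% held a strict box and 8.59% one with at most 1 departure. A match is a run of letters and not a measured binding site, and a window without one says only that these letters are not in these bases.

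For no contractile gene was the difference between VP16LXRa and VP16 tumors larger than the spread among tumors, and that spread was wide. The 8 arrays were ordered nearly alike by every member, taken at its brightest probe. There VP16LXRa replicate 5, VP16 replicate 4 and VP16 replicate 1 were the 3 lowest arrays for 9 of 9 members, VP16LXRa replicate 7 was the next for 9 of 9, and VP16 replicate 3 was the highest for 9 of 9. Desmin differed 49.8-fold between its lowest and its highest array, while the group difference was 1.09-fold.

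The arrays each detected 11469 to 12257 probes at a raw median signal of 126 to 146, and in neither measure did the 3 low arrays lie together at 1 end. VP16LXRa replicate 5 and VP16 replicate 1 stood apart from the other 6 arrays in genes outside the set. Their mean centred log2 intensity over 5 colonocyte genes was -4.48 and -1.61, against 0.80 to 1.24 on the others, and that over 6 Wnt target genes was 2.26 and 1.79, against -1.06 to -0.04. VP16 replicate 4 did not share this: its means were 0.80 and -1.06. The members' differences, spread and correlations are also given without VP16LXRa replicate 5 and VP16 replicate 1. The counts of the other lists are also given without a single array where that turned their direction. For the colonocyte, fibroblast, epithelial and Wnt lists they are given without VP16LXRa replicate 5 and VP16 replicate 1 as well. All of these but the members' differences were chosen after seeing the data. The labels do not give the sex of the mice. The 1 probe past limma's adjusted threshold was that of Eif2s3y, a Y-linked gene, with 5.43, 5.40, 5.32 and 5.54 in VP16LXRa replicates 5 to 8, against 7.81, 9.23, 9.04 and 9.42 in VP16 replicates 1 to 4 (log2 difference -3.45, SE 0.33, limma adjusted p = 0.0458), and its r with the members' mean was 0.00. At the other 3 tested probes placed on chromosome Y the groups overlapped and limma's threshold was not passed, and Jarid1d and Ddx3y were detected on all 8 arrays. Whether the sexes were unequal between the groups, and what part that has in any difference, was not tested. With 4 arrays a group, precision is limited throughout.

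Both smooth muscle actins were detected on all 8 arrays. Actg2 encodes the enteric gamma actin of visceral smooth muscle. It had log2 intensities of 10.56, 14.06, 13.60 and 14.37 in VP16LXRa replicates 5 to 8, against 12.18, 13.92, 14.53 and 10.88 in VP16 replicates 1 to 4. Each group therefore held both low and high tumors, and the groups overlapped over nearly their whole range. The mean was 13.15 ± 1.75 in VP16LXRa and 12.88 ± 1.66 in VP16 (SD, n = 4 each), a log2 difference of 0.27 (SE 1.02, 95% interval -2.06 to 2.60).

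Acta2, the alpha smooth muscle actin of vessels and myofibroblasts as well as gut muscle, gave at its brightest probe 13.33, 14.73, 14.23 and 14.63 in VP16LXRa replicates 5 to 8, against 13.78, 14.82, 15.16 and 12.62 in VP16 replicates 1 to 4. Its lowest array was VP16 replicate 4, whereas that of Actg2 was VP16LXRa replicate 5. The log2 difference was 0.13 (SE 0.56, 95% interval -1.16 to 1.42), and the range over the arrays was 5.81-fold, against 15.6-fold for Actg2. This was the smallest range among the Acta2 probes, the others having 9.82-fold, 7.32-fold and 6.95-fold.

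The myosin heavy chain of smooth muscle, Myh11, is its motor and a marker of mature smooth muscle cells. It stood at 7.09, 11.95, 10.77 and 12.04 in VP16LXRa replicates 5 to 8, against 9.32, 11.96, 12.52 and 8.52 in VP16 replicates 1 to 4. VP16LXRa replicate 5 was more than 1 log2 unit below every other array, and the groups overlapped. The mean was 10.46 ± 2.32 in VP16LXRa and 10.58 ± 1.96 in VP16 (SD, n = 4 each), a log2 difference of -0.11 (SE 1.28).

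Mylk encodes the myosin light chain kinase. At its brighter probe it had 8.88, 11.58, 11.12 and 12.01 in VP16LXRa replicates 5 to 8, against 9.44, 11.89, 12.15 and 9.28 in VP16 replicates 1 to 4. The 3 low arrays lay close together here and the widest gap between neighbouring arrays followed them: it took 51.4% of the gene's range, the most of any member. The log2 difference was 0.21 (SE 0.88, 95% interval -1.80 to 2.21), and its second probe gave -0.02 (SE 0.86). The gene for the kinase's substrate, the regulatory light chain Myl9, is not analysed here.

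Of the proteins on the actin filament, Tpm2, the beta tropomyosin that lies along it, had 8.80, 11.98, 11.38 and 11.97 in VP16LXRa replicates 5 to 8, against 9.87, 11.92, 12.32 and 8.95 in VP16 replicates 1 to 4. The log2 difference was 0.27 (SE 0.94). The other 2 probes of Tpm2 were detected on 0 of 8 arrays and were not tested.

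Tagln encodes transgelin, an actin-bundling protein and early marker of smooth muscle. Its log2 intensity was 5.33, 9.79, 9.25 and 10.25 in VP16LXRa replicates 5 to 8, against 7.44, 10.08, 10.73 and 6.45 in VP16 replicates 1 to 4. The only array without detection was VP16LXRa replicate 5, so that 3 of 4 VP16LXRa and 4 of 4 VP16 tumors measured it. The group means nearly coincided, with a log2 difference of -0.02 (SE 1.29) beside within-group SDs of 2.25 in VP16LXRa and 2.05 in VP16.

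Cnn1 encodes calponin, which binds actin and slows the myosin motor. Only 2 of 4 VP16LXRa and 2 of 4 VP16 arrays measured it above background, and its other values lie near the background and understate its range. It had 4.56, 5.60, 4.81 and 6.06 in VP16LXRa replicates 5 to 8, against 4.75, 5.91, 6.40 and 4.73 in VP16 replicates 1 to 4. The order of the arrays was that of the brighter members, and the log2 difference was -0.19 (SE 0.48).

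The last of the filament genes, Des, encodes desmin, the intermediate filament of muscle cells. It had 7.42, 12.32, 11.69 and 12.53 in VP16LXRa replicates 5 to 8, against 9.57, 12.39, 13.06 and 8.44 in VP16 replicates 1 to 4. In VP16LXRa 3 tumors lay close together and replicate 5 far below them, whereas the VP16 tumors were spread out. The mean was 10.99 ± 2.40 in VP16LXRa and 10.87 ± 2.21 in VP16 (SD, n = 4 each), a log2 difference of 0.13 (SE 1.38, 95% interval -3.02 to 3.27), and this interval was the widest of the set.

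Smtn encodes smoothelin, an actin-associated protein of contractile smooth muscle. At its brightest probe it had 9.18, 11.15, 10.82 and 11.56 in VP16LXRa replicates 5 to 8, against 9.63, 11.47, 11.81 and 8.81 in VP16 replicates 1 to 4. Like Acta2 it was lowest in VP16 replicate 4, and the log2 difference was 0.25 (SE 0.76).

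**Figure D1:**
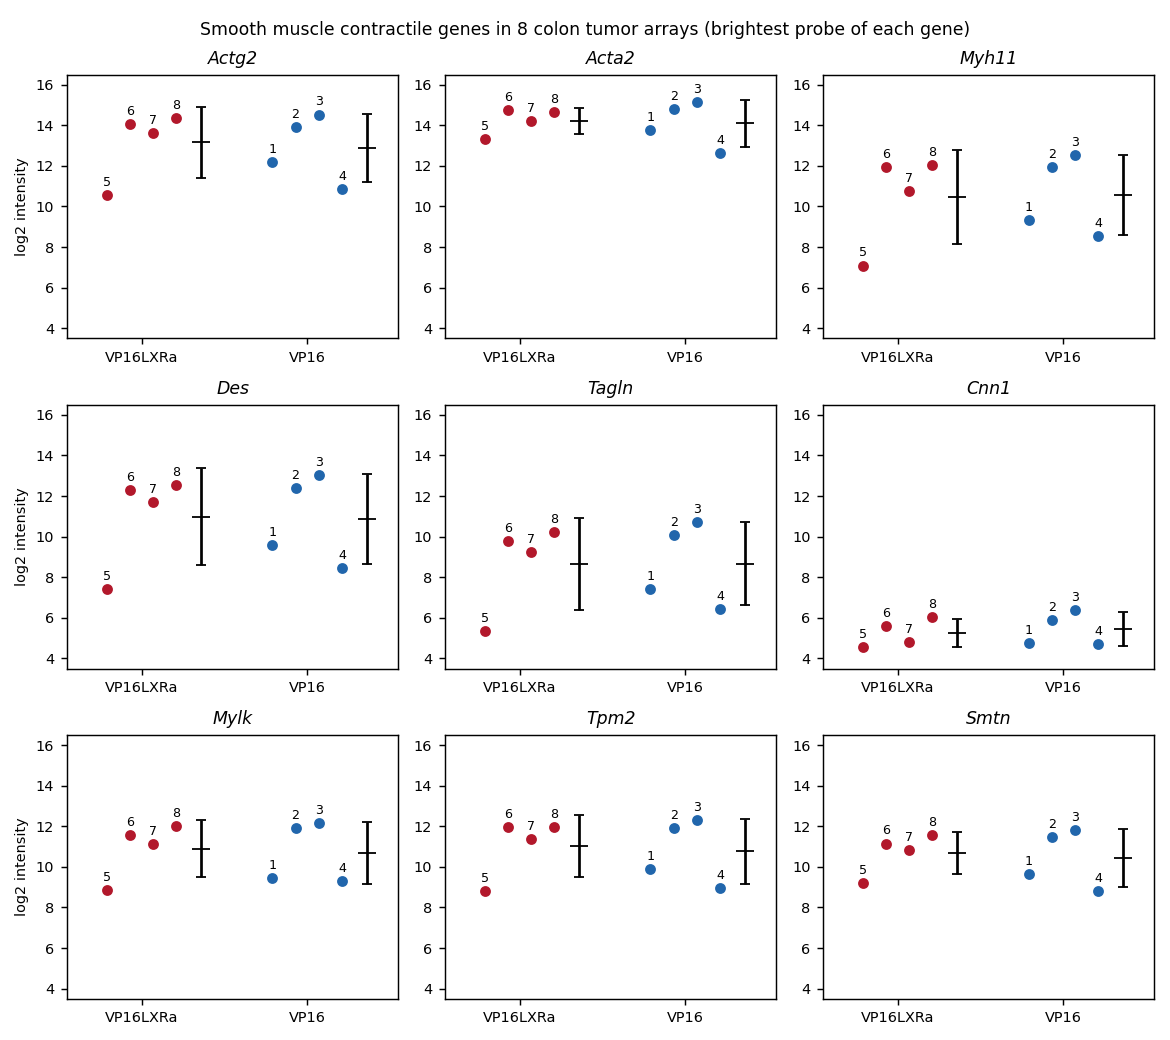
Log2 intensity of the 9 analysed members at their brightest probe, with VP16LXRa tumors on the left of each panel and VP16 tumors on the right. Each point is an array labelled with its replicate number, and the bars are the group mean ± SD (n = 4 each). Replicates 5, 1 and 4 are the 3 lowest points in every panel and replicate 3 is the highest. Levels of different genes come from different probes and are not comparable.

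Over all members the group difference was small beside its error. By limma's test 0 of 15 member probes passed an adjusted p of 0.05 (smallest adjusted p = 0.999902), where 0.00842% of all 11875 tested probes did. At an unadjusted p under 0.05, 0 of 15 member probes were called, where 1.68% of all tested probes were, and the smallest unadjusted p of a member was 0.409. The VP16LXRa and VP16 arrays overlapped at all 15 member probes, and 1.28% of all tested probes did not overlap. Limma with a trended and robust prior also called 0 of 15.

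At the brightest probe of each gene, 6 members had a higher mean in VP16LXRa tumors and 3 (Myh11, Tagln and Cnn1) a lower one, and of the 15 probes 8 were higher and 7 lower. The median log2 difference of the 9 members was 0.13, against 0.00206 over all tested probes, of which 50.4% were higher. The half-width of the 95% interval was between 1.09 (Cnn1) and 3.14 (Des) log2 units. For Des the interval held folds between 0.123 and 9.65, so a difference of several-fold either way would not have been detectable with these arrays.

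**Figure D2:**
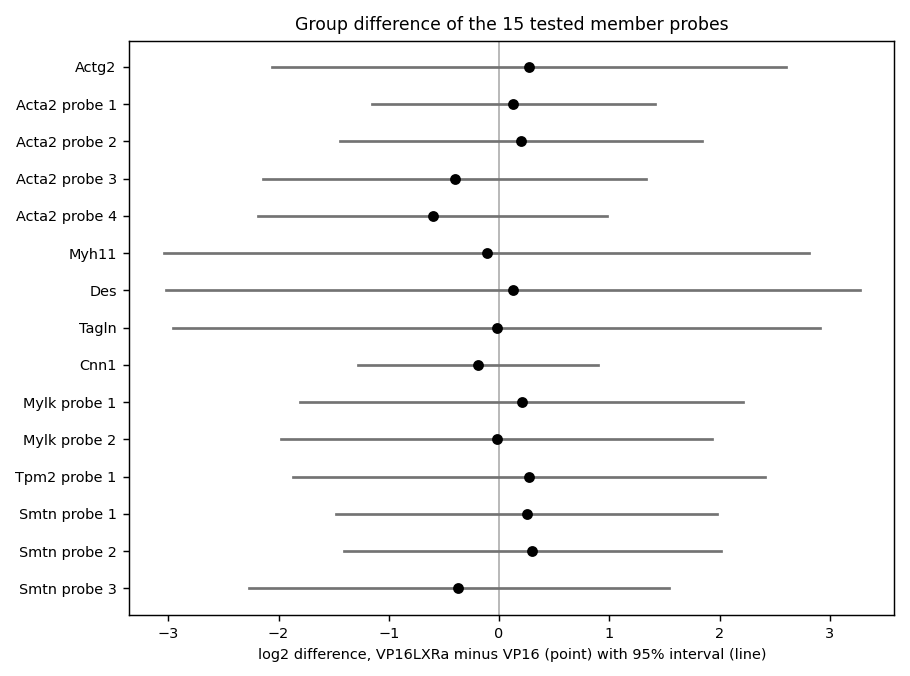
Log2 difference, VP16LXRa minus VP16, of the 15 tested member probes, as a point with its 95% interval from limma. All 15 intervals include 0. The widest is that of Des, from -3.02 to 3.27.

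The sign of this median depended on single arrays. Without VP16LXRa replicate 5 it was 1.01, with 9 of 9 members higher in VP16LXRa. Without VP16 replicate 4 it was -0.39, with 0 of 9 higher. It was also negative without VP16LXRa replicate 6 (-0.04), VP16LXRa replicate 8 (-0.17) or VP16 replicate 1 (-0.21), and it was 0.60 without VP16 replicate 2 and 0.69 without VP16 replicate 3. With VP16LXRa replicate 5 and VP16 replicate 1 both left out it was 0.59. In each of these fits 0 of 15 member probes passed limma's adjusted threshold, and 0 had an unadjusted p under 0.05.

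**Figure D3:**
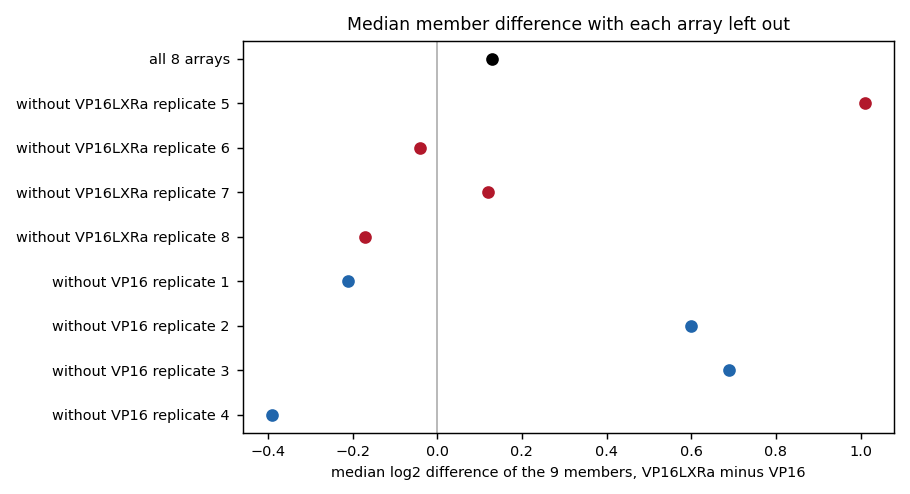
Median log2 difference of the 9 members, VP16LXRa minus VP16, with all 8 arrays and with each array left out in turn. Red points leave out a VP16LXRa array, blue points a VP16 array. The median runs from -0.39 without VP16 replicate 4 to 1.01 without VP16LXRa replicate 5.

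The spread among tumors, by contrast, was far above that of most genes. The SD over the 8 arrays had a median of 1.46 log2 units over the members, against 0.347 over all tested probes, and 2.07% of all tested probes had an SD at or above the members' median. Des ranked 74, Tagln 90 and Myh11 92 among all 11875 tested probes by SD. Cnn1, detected on 4 of 8 arrays, ranked 1539. The share of a member's variance that lay between the groups had a median of 0.661%, against 4.39% over all tested probes. From lowest to highest array the members differed by between 3.60-fold (Cnn1) and 49.8-fold (Des) on the log2 scale with its offset of 16, which shrinks the folds of dim probes. Without VP16LXRa replicate 5 and VP16 replicate 1 the median SD was 1.25 over the members, against 0.260 over all tested probes, and Des ranked 51, Tagln 77 and Myh11 99.

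In raw signal the 15 member probes together made up 0.143%, 0.615%, 0.411% and 0.651% of the summed signal of VP16LXRa replicates 5 to 8, against 0.221%, 0.655%, 0.884% and 0.118% in VP16 replicates 1 to 4. The lowest and the highest shares were both found in VP16. In total RNA of a tumor sample, fewer smooth muscle cells and less of these transcripts per cell cannot be told apart.

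The members varied together over the tumors. The mean of the 9 centred members, called the member score here, was -2.19, 0.92, 0.31 and 1.17 in VP16LXRa replicates 5 to 8, against -0.99, 1.05, 1.53 and -1.80 in VP16 replicates 1 to 4. VP16LXRa replicate 5 was the lowest array for 7 members and VP16 replicate 4 for the other 2, Acta2 and Smtn. Among the 5 higher arrays the order was also shared in large part: VP16LXRa replicate 8 was next to the highest for 7 of 9 members, and VP16LXRa replicate 6 and VP16 replicate 2 stood between it and VP16LXRa replicate 7 in most.

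All 36 pairs of members were correlated over the 8 arrays, each tested by an exact permutation test with Benjamini-Hochberg adjustment over the pairs. Pearson's r was lowest for Actg2 and Cnn1 (r = 0.845, exact p = 0.00858) and highest for Des and Tagln (r = 0.999, exact p = 2.48e-05, the smallest that 8 arrays allow), with a median of 0.972 and adjusted exact p between 0.000149 and 0.00935. Spearman's rank correlation was between 0.881 and 1 (adjusted exact p between 0.000179 and 0.00724). Myh11, Des and Tagln ordered the 8 arrays identically. Without the 2 arrays farthest from the median, r was between 0.83 and 0.998 (adjusted exact p between 0.00357 and 0.0458). With the group means subtracted and arrays permuted within groups, it was between 0.87 and 0.999 (adjusted exact p between 0.00391 and 0.0156). Without VP16LXRa replicate 5 and VP16 replicate 1 it was between 0.772 and 0.999 (adjusted exact p between 0.00333 and 0.0111). Over those 6 arrays VP16 replicate 4 was the lowest and VP16 replicate 3 the highest for 9 of 9 members.

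These correlations share their arrays and the normalization of those arrays, and the genes were picked as markers of 1 tissue. The widest gap between neighbouring arrays took between 26.7% (Myh11) and 51.4% (Mylk) of a member's range and in most members followed the 3 low arrays. If those 3 are taken as a set of their own, neither they nor the other 5 are enough arrays for a correlation within a set, and only the order given above remains.

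Different probes of 1 gene did not always give the same order, and VP16LXRa replicate 7 was where they parted most. It lay above the probe's own mean at 10 member probes and below it at 5. The members' 3 lowest arrays were the 3 lowest at 12 of the 15 probes and not at Acta2 probes 3 and 4 and Smtn probe 3, numbered from the brightest. The brightest 2 probes of Acta2 deviated from their means by 0.07 and 0.14 in this array, and the other 2 by -1.20 and -1.12. Smtn was alike, with deviations of 0.26 and 0.33 at its brighter probes and -1.33 at the dimmest. Those dimmer probes gave log2 differences of -0.40 (SE 0.76) and -0.60 (SE 0.70) for Acta2 and -0.37 (SE 0.83) for Smtn, where the brightest gave 0.13 and 0.25. Probes also parted in VP16 replicate 4. From the brightest probe to the dimmest, Acta2 deviated there by -1.54, -2.01, -1.22 and -1.02, and Smtn by -1.75, -1.78 and -0.71. The probes' positions within the transcripts were not used here, and the cause was not tested.

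Genes outside the set followed the same order. Of the 11860 tested probes of other genes, 195 (1.64%) had a Pearson r of at least 0.9 with the member score over the 8 arrays and 72 an r of at most -0.9. The same 3 arrays were the lowest for 829 of these probes (6.99%). Over the 6 arrays without VP16LXRa replicate 5 and VP16 replicate 1, 421 (3.55%) had an r of at least 0.9 with the members. The 10 most alike genes had r between 0.982 and 0.998, given as a description with no test, and between 0.972 and 0.998 over those 6 arrays. Each of these was taken at its most alike tested probe, which need not be its brightest. The closest was Synm (r = 0.998), which encodes synemin, an intermediate filament protein that pairs with desmin. At this dimmer probe it had 5.54, 9.58, 8.78 and 9.94 in VP16LXRa replicates 5 to 8, against 6.90, 9.66, 10.09 and 6.05 in VP16 replicates 1 to 4. The brightest tested Synm probe had r = 0.987 and was lowest in VP16 replicate 4 (6.62).

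Pdlim3 (r = 0.994), a LIM protein that binds alpha-actinin in muscle, and Pgm5 (r = 0.992), a phosphoglucomutase relative found at muscle cell junctions, came with it, as did Popdc2 (r = 0.992), a membrane protein of heart and skeletal muscle. Pgm5 was detected on 6 arrays and Popdc2 on 5. Slc24a3 (r = 0.990), an exchanger of sodium and potassium for calcium, Hoxb5 (r = 0.988), a homeobox transcription factor, and Myom1 (r = 0.987), a protein of the M-band of striated muscle, followed. The remaining 3 were Lynx1 (r = 0.984), a modulator of nicotinic acetylcholine receptors, Sdpr (r = 0.983), a protein of caveolae, and Ppp1r3c (r = 0.982), which directs protein phosphatase 1 to glycogen. Their log2 differences between the groups were all between -0.08 and 0.29, and none passed limma's test.

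**Figure D4:**
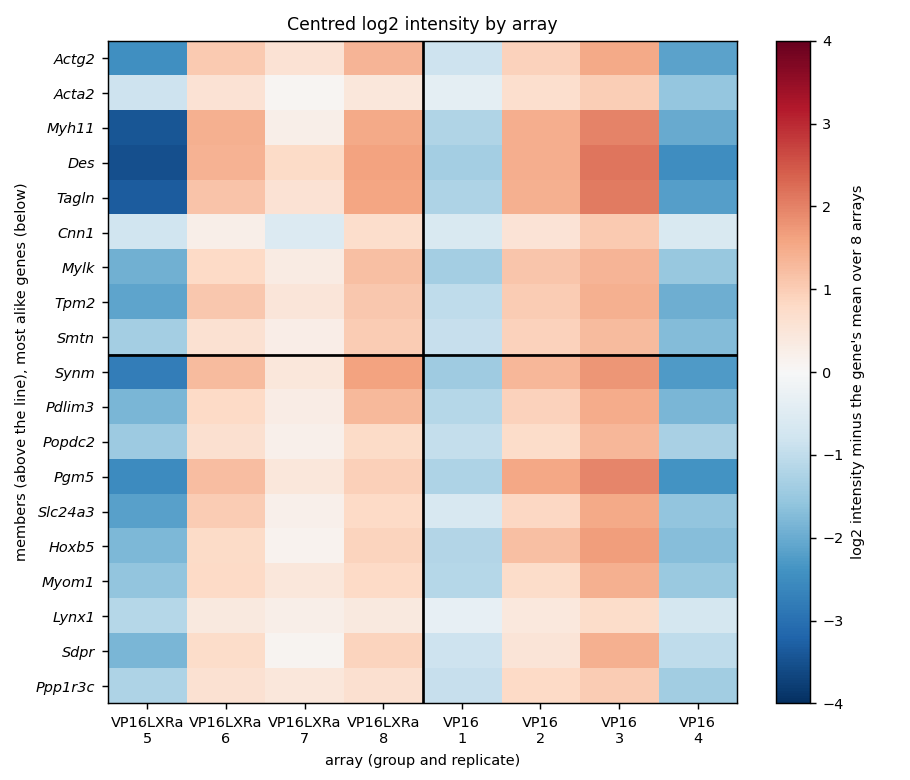
Log2 intensity minus the gene's mean over the 8 arrays, for the 9 members above the line and the 10 most alike other genes below it, with VP16LXRa arrays left of the vertical line and VP16 arrays right of it. Blue is below the gene's mean and red above it. The columns of VP16LXRa replicate 5 and of VP16 replicates 1 and 4 are blue throughout.

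Further genes were taken from 16 lists of smooth muscle genes, their regulators and markers of other cells. Over the lists 102 genes were tested, each at its brightest probe. Of these 49 had a higher and 53 a lower mean in VP16LXRa tumors, 0 passed limma's adjusted threshold and 0 had an unadjusted p under 0.05. As with the members, the sign of a list's median depended on single arrays: of the 12 lists with at least 4 tested genes, 11 had a median of the other sign without some array.

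Among 14 other genes of the smooth muscle cytoskeleton, 9 were higher and 5 lower in VP16LXRa (median log2 difference 0.09), and 6 had the members' 3 lowest arrays. Without VP16 replicate 4, 1 was higher and 13 lower (median -0.29). Csrp1, a LIM protein of the smooth muscle cytoskeleton, had the smallest p of the list and a pattern of its own. It had 11.61, 6.42, 10.99 and 11.51 in VP16LXRa replicates 5 to 8, against 5.43, 12.65, 6.60 and 4.98 in VP16 replicates 1 to 4 (log2 difference 2.72, SE 1.83). Its value in VP16LXRa replicate 5, the lowest array for most members, was among its highest. Cald1, the actin-binding caldesmon, differed by -0.38 (SE 0.43), and Aoc3, an amine oxidase on the surface of smooth muscle cells, by 0.45 (SE 0.64).

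Of 8 tested regulators of the SRF and myocardin program, 5 were higher and 3 lower (median 0.02, and -0.12 without VP16 replicate 4), and 1 had the members' 3 lowest arrays. That gene was Srf itself, which had 9.34, 9.73, 9.39 and 9.55 in VP16LXRa replicates 5 to 8, against 9.12, 9.52, 9.71 and 8.89 in VP16 replicates 1 to 4 (log2 difference 0.19, SE 0.21). Its range was under 1 log2 unit. Myocd, the gene of myocardin, had 5.42, 6.25, 6.64 and 6.82 in VP16LXRa replicates 5 to 8, against 6.36, 6.45, 7.31 and 4.99 in VP16 replicates 1 to 4, and its r with the member score was 0.87, against 0.82 for Srf. These were the highest of the list: over the 8 regulators r was between -0.65 (Tgfb1) and 0.87, with a median of 0.41. Klf4, a zinc-finger factor of differentiating epithelium that also represses smooth muscle genes, differed by -0.72 (SE 0.88) and was low in VP16LXRa replicate 5 (7.44) and VP16 replicate 1 (9.42). Nkx2-3, a homeobox factor of gut mesenchyme, differed by 0.24 (SE 0.31).

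Of 13 tested genes for the signalling that sets the force of contraction, 4 were higher and 9 lower (median -0.06), and 4 had the members' 3 lowest arrays. Without VP16LXRa replicate 5, 8 were higher and 5 lower (median 0.02). Gucy1a3, a subunit of the nitric oxide receptor, and Ppp1r14a, an inhibitor of myosin phosphatase, were among those 4, each with r = 0.95 with the member score. They had the highest r of the 13 genes, over which r was between -0.30 and 0.95 with a median of 0.52. Gucy1a3 had 5.95, 8.54, 7.69 and 8.05 in VP16LXRa replicates 5 to 8, against 6.85, 8.17, 9.10 and 6.83 in VP16 replicates 1 to 4. Ppp1r12c, a targeting subunit of myosin phosphatase, differed by 0.36 (SE 0.24), Gnaq, a G protein subunit that couples receptors to calcium release, by 0.21 (SE 0.14), and Rock2, a kinase that inhibits myosin phosphatase, by -0.42 (SE 0.36). Among 5 channels and receptors 4 were higher and 1 lower (median 0.15, and -0.10 without VP16 replicate 4). The muscarinic receptor gene Chrm3 differed by 0.50 (SE 0.36), and the endothelin receptor genes Ednra and Ednrb by 0.42 (SE 0.49) and 0.15 (SE 0.33).

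The genes listed as non-muscle relatives of the contractile proteins held no common order with the members. Of the 10 tested, 4 were higher and 6 lower in VP16LXRa (median -0.05, and 0.05 without VP16LXRa replicate 6), and 0 had the members' 3 lowest arrays. Their r with the member score was between -0.70 and 0.59. Over the 6 arrays without VP16LXRa replicate 5 and VP16 replicate 1 it was between -0.61 and 0.81. Myl6, a myosin light chain of smooth muscle as well as non-muscle cells, had the list's highest r over the 8 arrays (0.59) and differed by -0.19 (SE 0.19). The tropomyosin gene Tpm3 differed by -0.20 (SE 0.23), and the calponin gene Cnn2 by 0.22 (SE 0.27).

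Markers of other cells followed the members' order in part. All 4 tested markers of enteric neurons and glia, of 13 listed, had the members' 3 lowest arrays, and their median r with the member score was 0.94. Vip, a neuropeptide of enteric neurons, had 4.38, 9.25, 8.16 and 8.35 in VP16LXRa replicates 5 to 8, against 6.42, 9.62, 9.34 and 6.37 in VP16 replicates 1 to 4. Stmn2, a tubulin-binding protein of neurons, had a log2 difference of -0.37 (SE 0.70). Of the 4, 1 was higher and 3 lower in VP16LXRa (median -0.23), and without VP16LXRa replicate 5 all 4 were higher (median 0.38). The summed raw signal of the list was between 512 and 1460 in VP16LXRa and between 626 and 1716 in VP16, and its part in the members' pattern was not tested.

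Colonocyte genes were far lower in VP16LXRa replicate 5 and VP16 replicate 1 than in VP16 replicate 4. Of the 5 tested, 2 had the members' 3 lowest arrays, with VP16 replicate 4 just below the higher arrays. Their r with the member score was between 0.70 and 0.77 over the 5 genes, with a median of 0.74. Without VP16LXRa replicate 5 and VP16 replicate 1 it was between -0.05 and 0.90, with a median of 0.71. Aqp8, a water channel of surface colonocytes, had 4.54, 12.78, 12.61 and 12.41 in VP16LXRa replicates 5 to 8, against 9.17, 13.20, 13.17 and 13.00 in VP16 replicates 1 to 4. All 5 tested colonocyte genes were lower in VP16LXRa (median -0.72), with Guca2a, the gut peptide guanylin, at -0.72 (SE 0.99) and Car4, a membrane carbonic anhydrase, at -1.20 (SE 1.92). This direction rested on VP16LXRa replicate 5: without it all 5 were higher (median 0.47), and without VP16 replicate 1 as well, 1 was higher and 4 lower (median -0.12). Their summed raw signal was between 3435 and 64037 in VP16LXRa and between 16236 and 76625 in VP16, and their part in the members' pattern was not tested.

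Fibroblast markers differed from the members in VP16LXRa replicate 5 and VP16 replicate 1. Of 11 tested, 0 had the members' 3 lowest arrays, and r with the member score was between -0.63 and 0.86 (Fbln1, a matrix glycoprotein) with a median of -0.28. Over the 6 arrays without those 2, the median r was 0.84. Their mean centred log2 intensity was 0.77, -0.01, -0.16 and -0.22 in VP16LXRa replicates 5 to 8, against 0.92, -0.34, 0.14 and -1.09 in VP16 replicates 1 to 4. VP16LXRa replicate 5 and VP16 replicate 1, low for the contractile genes, were the highest arrays of this list, while VP16 replicate 4 was low in both. Their summed raw signal was between 10852 and 27072 in VP16LXRa and between 7403 and 29084 in VP16. Of the 11, 10 were higher and 1 lower in VP16LXRa (median 0.21). But 4 were higher and 7 lower without VP16LXRa replicate 5 (median -0.11) or without VP16 replicate 4 (median -0.10). With VP16LXRa replicate 5 and VP16 replicate 1 both left out, 9 were higher and 2 lower (median 0.37). Col3a1 and Col1a2, which encode fibrillar collagen chains, differed by 0.49 (SE 0.45) and 0.37 (SE 0.45), and Lum, a collagen-binding proteoglycan, by -0.82 (SE 0.48).

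Among 7 pericyte markers 3 were higher and 4 lower (median -0.03). Without VP16 replicate 4, 0 were higher (median -0.27), but without VP16 replicate 1, 5 were higher and 2 lower (median 0.27). The 1 marker with the members' 3 lowest arrays was Rgs5, a regulator of G protein signalling in pericytes, with 8.06, 9.75, 8.19 and 9.60 in VP16LXRa replicates 5 to 8, against 8.17, 9.30, 10.04 and 5.32 in VP16 replicates 1 to 4. Over the 7 pericyte markers r with the member score was between -0.67 and 0.81, with a median of 0.33. Without VP16LXRa replicate 5 and VP16 replicate 1 it was between -0.05 and 0.99, with a median of 0.82. Abcc9, a potassium channel subunit, and the receptor gene Notch3 differed by -0.38 (SE 0.28) and 0.23 (SE 0.43). Among 7 endothelial markers 4 were higher and 3 lower (median 0.02), 0 were higher without VP16LXRa replicate 5 (median -0.17), and 0 had the members' 3 lowest arrays. The tight junction gene Cldn5 differed by -0.42 (SE 0.33), the angiopoietin receptor gene Tek by -0.24 (SE 0.24), and Vwf, the von Willebrand factor, by 0.33 (SE 0.53).

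The defining markers of striated muscle were mostly not detected: 2 of 12 were tested. Myl1, a light chain of fast muscle myosin, had 6.14, 7.03, 5.90 and 6.15 in VP16LXRa replicates 5 to 8, against 11.47, 7.29, 7.06 and 4.42 in VP16 replicates 1 to 4. Acta1, the skeletal actin, ran against the members (r = -0.90) and differed by -0.23 (SE 0.45). Of the adipocyte markers 0 of 5 were tested, of mesothelium 1 of 4 (Upk3b, -0.34, SE 0.52), and of the interstitial cells that pace gut muscle 1 of 4 (Ano1, a chloride channel, -0.10, SE 0.27).

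All 8 tested epithelial markers were lower in VP16LXRa (median -0.26), and 5 of 8 without VP16LXRa replicate 5 (median -0.09). The median stayed negative whichever single array was left out. Without VP16LXRa replicate 5 and VP16 replicate 1, all 8 markers were lower (median -0.15). Their r with the member score over the 8 arrays was between -0.21 and 0.68, with a median of 0.15. Without VP16LXRa replicate 5 and VP16 replicate 1 it was between -0.81 and 0.46, with a median of -0.67. Vil1, which bundles actin in microvilli, differed by -0.37 (SE 0.25), and the keratin genes Krt19 and Krt8 by -0.30 (SE 0.21) and -0.21 (SE 0.18). Of 6 Wnt target genes 5 were higher and 1 lower (median 0.39), but 2 were higher and 4 lower without VP16LXRa replicate 5 (median -0.14). Without VP16 replicate 1 as well, 5 were again higher and 1 lower (median 0.39). Their r with the member score was between -0.68 and -0.45 over the 8 arrays. That sign rested on 2 arrays: without VP16LXRa replicate 5 and VP16 replicate 1, r was between -0.06 and 0.49 (median 0.33). Tcf7, a Wnt transcription factor, differed by 0.46 (SE 0.34), the secreted inhibitor gene Wif1 by 1.14 (SE 1.38) and the transcription factor gene Sp5 by 1.02 (SE 1.38). What part the fibroblast, epithelial and Wnt genes have in the members' pattern was not tested. None of the markers in these lists passed limma's test between the groups, and the shares called over all probes are those given above.

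**Figure D5:**
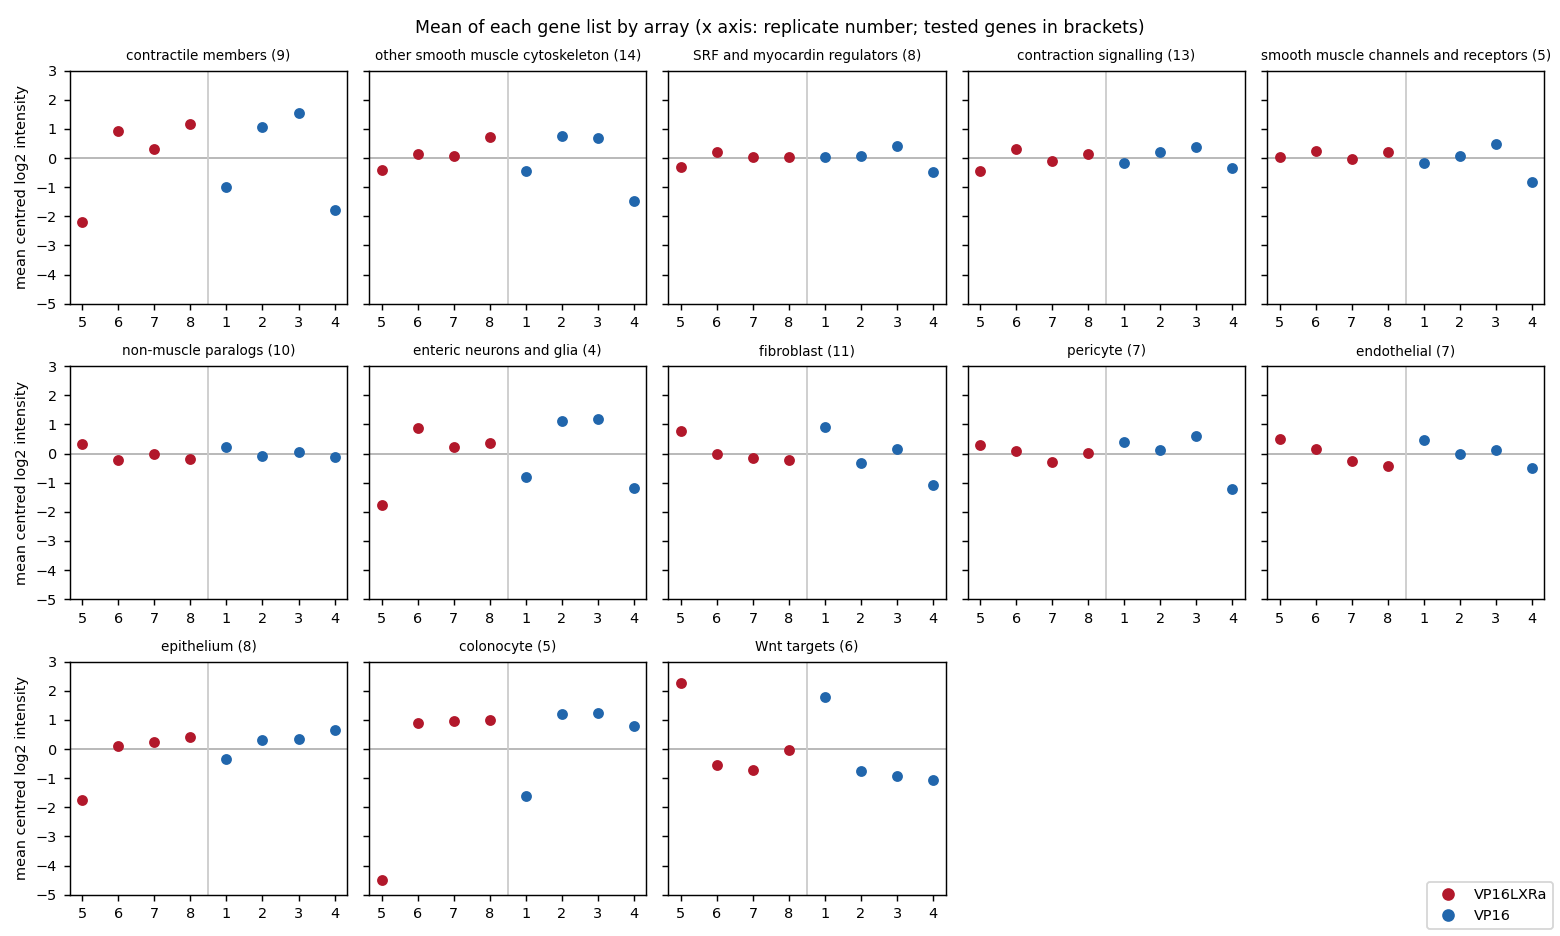
Mean centred log2 intensity of each list with at least 4 tested genes, by array, with VP16LXRa replicates 5 to 8 (red) left of VP16 replicates 1 to 4 (blue). The contractile members and the enteric neuron and glia markers are lowest in replicates 5, 4 and 1. So are the other smooth muscle cytoskeleton genes and, over a smaller range, the contraction signalling genes. The colonocyte genes are lowest in replicates 5 and 1, and the fibroblast markers in replicate 4.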

How the data were processed

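Per the file headers, the deposited table gives 2 columns per array for 25697 probes: a bead summary signal, which is a linear intensity with no normalization, and a detection p-value. GenomeStudio is named, with no version, in the submitters' processing notes. Per the labels, RNA was extracted with QIAzol and biotinylated after amplification with an Ambion kit. The authors' processed intensities are in another deposited table. Its columns keep the order of the signals (Spearman correlation 1.000 on each array), have medians between 18.04 and 18.16 and go down to -24.3. It is on a linear scale and not centred by gene, and no header or label names its normalization.

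Here limma 3.58.1 in R 4.3.3 was used. Its neqc function corrected the background (normexp, with detection p in place of control probes), applied quantile normalization and took log2 after an offset of 16. The test took in 11875 probes (46.2%), those detected at p under 0.01 on 4 or more arrays. VP16LXRa minus VP16 was fitted with lmFit and eBayes, and two-sided p-values were adjusted over all tested probes by the Benjamini-Hochberg method, with a threshold of 0.05. Groups come from the genotype in the labels, with 4 arrays each. As no label gives the mouse of a tumor, the p-values reflect only how these samples spread, which may be technical in part. The files name no slide or scan, so batches were not examined. The code was checked on simulated data.

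The members and the lists were chosen with earlier results of these data known, so lists are described by counts and medians. Every member probe was named. Some genes that the rule for the lists would name are not reported here. Of each other list the text names up to 3 genes with the smallest p. Beside these it names the 10 genes most like the member score at any tested probe, clone and locus names left out. Srf, Rgs5, Myocd, Gucy1a3, Ppp1r14a, Fbln1, Eif2s3y, Jarid1d and Ddx3y were chosen with their values in view. Symbols follow the array file, and listed genes without a matching symbol are not analysed here. Promoters and chromosomes came from RefSeq tables. As alternatives, the background correction was left out, quantile normalization was replaced by cyclic loess or by median scaling, or the authors' processed values were taken. Others were an offset of 50, 3 detection filters, a trended robust prior, array weights, arrays left out, and averaging over the probes of a gene.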

Additional observations from a re-analysis of the deposited data

Results flagged for a closer look

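A value is given here where 1 array stood apart from the other 3 of its group, with a gap to the nearest of them above Dixon's 95% critical value for 4 samples. Of 132 groups examined 17 met this. For a single group chance alone gives about 1 in 20. The count cannot be set against that share, because the groups come from the same arrays and many of the genes vary together. Some of the genes were also picked for their likeness to the members or for a small p. Among the member probes it was met once. Des was 7.42 in VP16LXRa replicate 5, against 11.69 to 12.53 in the other VP16LXRa tumors.

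The same array stood apart in genes named beside the members. VP16LXRa replicate 5 was low for Klf4 (7.44), Ano1 (7.68), Aqp8 (4.54), Guca2a (10.83) and Car4 (4.68), and for the member-like genes Myom1 (5.61), Lynx1 (6.62) and Ppp1r3c (6.82). It was high for Ednra (9.61) and Vwf (10.08). VP16 replicate 1 was low for Klf4 (9.42) and Aqp8 (9.17) and high for Wif1 (9.79) and Sp5 (8.92). Csrp1 was 6.42 in VP16LXRa replicate 6, against 10.99 to 11.61 in the other VP16LXRa tumors. Tek was 6.34 in VP16 replicate 2, against 6.73 to 6.77 in the other VP16 tumors. All values are log2 intensities, and no cause was tested.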

How the results depend on the processing

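Under every alternative run, 0 of the tested member probes and 0 of the listed genes passed limma's adjusted threshold, and no member probe reached an unadjusted p under 0.05 (smallest 0.164). Over 283 values of single member probes under alternatives, the log2 difference was between -1.05 and 1.31, and 50 had another sign than with all arrays. The median member difference was between 0.06 and 0.59 under the other alternatives and between -0.39 and 1.01 with 1 array left out. The number of members higher in VP16LXRa, 6 with all arrays, was between 0 and 9 with 1 array left out. The number of all probes past the adjusted threshold, 1 with all arrays, was 0 without background correction, with an offset of 50, without a detection filter, and with detection required on 2 or on all 8 arrays. It was between 0 and 2 with 1 array left out, and 4 without VP16 replicate 1 and VP16LXRa replicate 5. Requiring detection on all 8 arrays left Tagln and Cnn1 untested. The 36 member pairs passed under each of the 4 alternative forms of the test, of which the one without VP16LXRa replicate 5 and VP16 replicate 1 was chosen after seeing the data. No paired analysis was possible because the replicate numbers of the groups are not shared. Dim signals limit Cnn1 most, being detected on 4 of 8 arrays.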
